A study of Mus musculus with 59 samples.

Results

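The Cdkn2a and Cdkn2b locus is taken here as a window of 60 kb on mouse chromosome 4 that starts at position 88905001 of build mm9, and the members are all intervals of all deposited lists that share at least 1 bp with it. There were 159 of them among 1107554 intervals in all: 52 of 408766 H3K27me3 islands, 73 of 539823 H3K27ac peaks and 34 of 158965 H3K4me3 peaks. The locus was selected on its H3K27me3, H3K27ac and H3K4me3 values in these lists, so all that is said of it below is a description and carries no test. The chromatin immunoprecipitation lists came from brainstem tumours and embryonic neurospheres of mice with a knock-in of the K27M change, or of the unchanged tagged histone (WT), in the H3.3 gene H3f3a. K27M tumours (6) had the allele H3f3aLSL-K27M-Tag/+ and WT tumours (5) the allele H3f3aLSL-WT-Tag/+, and tumours of both genotypes also carried LSL-PDGFRαV544ins and Trp53flox/flox with Nestin-creERT2 as the recombinase. K27M neurospheres from forebrain and from hindbrain (3 lists each) and WT neurospheres from hindbrain (3 lists) were cultures of embryonic day 15.5 cells with the same H3f3a alleles and Nestin-cre, without the other transgenes. Nestin drives the recombinase in neural precursors, tumours were frozen whole, and in such bulk samples fewer marked cells and less of a mark per cell cannot be told apart. H3K27me3 was profiled in all of these, H3K27ac in the 11 tumours, and H3K4me3 in K27M tumours 2 and 6 and WT tumours 7, 9 and 10.

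Cdkn2a encodes the cyclin-dependent kinase inhibitor p16INK4a and, from a start further upstream and in another reading frame, p19ARF, which holds back Mdm2 and so stabilises p53. Cdkn2b, its neighbour, encodes the related kinase inhibitor p15INK4b. In proliferating precursor cells the locus is a classical target of Polycomb repression: the complex PRC2 places H3K27me3, and PRC1 with Bmi1 acts on it. H3K27ac is found at active promoters and enhancers and cannot sit on the same lysine as H3K27me3, while H3K4me3 marks promoters, including silent ones that also carry H3K27me3. The tumours carry floxed Trp53, the gene of p53, which acts downstream of p19ARF.

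RefSeq lists 3 starts for these genes in build GRCm38.p6, all on the minus strand, and their promoters are shown because the H3K4me3 sites described below are promoter marks over this locus. Each sequence runs 5′ to 3′ from 250 bases before the start to 50 after it, and capitals mark each CG dinucleotide, a motif that reads the same on both strands.
Cdkn2a, the start known for p16INK4a, chr4:89282143-89282442: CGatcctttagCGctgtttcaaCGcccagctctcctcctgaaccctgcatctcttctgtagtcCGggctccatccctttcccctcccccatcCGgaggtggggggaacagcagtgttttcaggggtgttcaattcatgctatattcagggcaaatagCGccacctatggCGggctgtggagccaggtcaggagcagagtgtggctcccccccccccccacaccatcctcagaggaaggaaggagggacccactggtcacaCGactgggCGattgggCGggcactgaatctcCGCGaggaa
Cdkn2a, the start known for p19ARF, chr4:89294570-89294869: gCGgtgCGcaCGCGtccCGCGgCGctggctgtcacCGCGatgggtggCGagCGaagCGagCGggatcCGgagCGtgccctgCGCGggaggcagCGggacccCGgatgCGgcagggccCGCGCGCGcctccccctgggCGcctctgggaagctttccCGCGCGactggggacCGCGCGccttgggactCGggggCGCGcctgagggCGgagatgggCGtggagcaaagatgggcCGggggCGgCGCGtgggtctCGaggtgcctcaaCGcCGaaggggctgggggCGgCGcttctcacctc
Cdkn2b, chr4:89310983-89311282: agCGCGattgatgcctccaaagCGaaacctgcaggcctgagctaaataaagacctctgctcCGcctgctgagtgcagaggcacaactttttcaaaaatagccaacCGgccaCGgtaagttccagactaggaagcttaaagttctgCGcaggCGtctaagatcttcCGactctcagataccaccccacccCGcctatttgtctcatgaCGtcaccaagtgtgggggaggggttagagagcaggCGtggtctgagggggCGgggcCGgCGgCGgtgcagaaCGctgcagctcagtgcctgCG
They held 12, 45 and 18 CG dinucleotides, in this order. Of 32817 RefSeq promoters of the same length 94.6% held at least 1, with a median of 7, and 39.6%, 1.93% and 29.7% held at least as many as each. The p19ARF promoter is thus by far the most CG-dense of the 3, with a GC content of 77.0%, against 60.3% at the p16INK4a start and 57.7% at Cdkn2b. These positions belong to another build than the lists and are not converted. In the same annotation a long noncoding RNA gene, Gm12610, stands between Cdkn2a and Cdkn2b, and Dmrta1 is the next protein-coding gene on the Cdkn2b side.

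The H3K27me3 lists held 1878972 to 14400936 reads in autosomal islands, and the 95% Wilson interval of a locus share spanned at most 15.4% of the share on each side, which covers counting error only. Total depth is not given in the sources used here. Peak numbers per list ranged between 36284 and 61251 for H3K27ac and between 28480 and 34291 for H3K4me3. WT tumour 11 and K27M tumour 5 had the shortest autosomal coverage of the tumours, 77.6 and 67.1 Mb, and they had the highest shares of their genotypes. Labels do not say that libraries came from separate animals, so the spread between them may in part be technical.

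In hindbrain neurospheres the locus kept its broad H3K27me3 domain in K27M cells, while in most windows with any island the covered length was shorter than in WT cells. Islands covered 46.4, 46.2 and 48.4 kb of the 60 kb in K27M hindbrain cultures, against 42.4, 40.6 and 45.8 kb in WT hindbrain cultures. Every K27M culture lay above every WT culture, with means of 47.0 ± 1.22 kb in K27M and 42.9 ± 2.64 kb in WT cultures (SD, n = 3 each). The same held in only 0.413% of 12845 autosomal windows of 60 kb with an island in either group, whereas the groups separated the other way in 55.5%. The difference between the means was 4.07 kb at the locus, and over all windows its median was -5.60 kb. Just outside the window this changes: within 20 kb on the side of lower coordinates, islands covered 2.00, 0 and 0 kb in K27M and 1.80, 5.80 and 8.60 kb in WT cultures. With 20 kb added on both sides the means were 47.7 kb in K27M and 48.3 kb in WT cultures, so the excess of covered length belongs to the window alone.

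**Figure D1:**
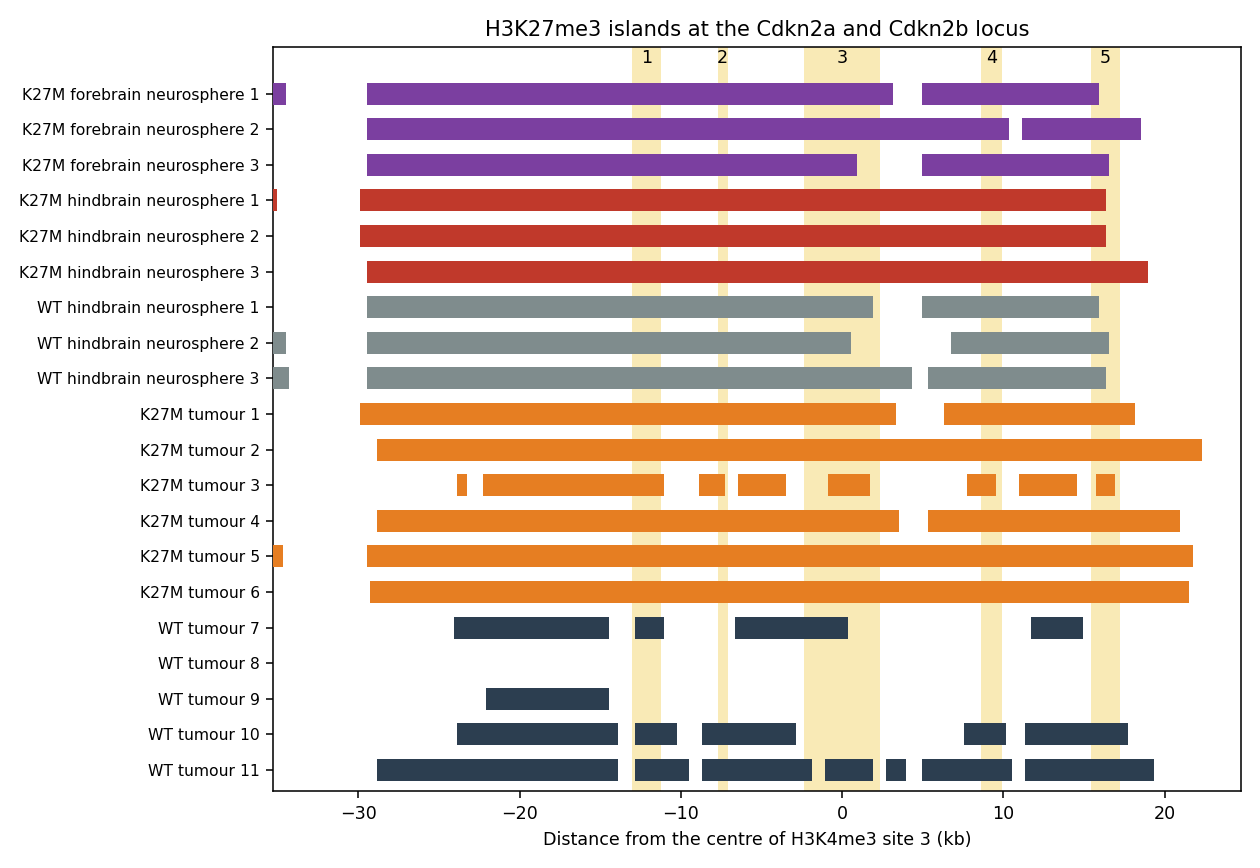
H3K27me3 islands (bars) of the 20 libraries at the Cdkn2a and Cdkn2b locus, by distance in kb from the centre of the widest H3K4me3 site. Yellow bands are the 5 sites with an H3K4me3 peak in all 5 tumours profiled. K27M hindbrain cultures show 1 unbroken domain across the sites, WT hindbrain cultures show a gap that ends before site 4 and begins within or just after site 3, WT tumours have short scattered islands, and WT tumour 8 has none.

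Reads at the locus took a larger share of the autosomal island reads in K27M hindbrain cultures. The share is given as reads at the locus per 1000000 reads in autosomal islands (RPM), and was 3904, 4152 and 4223 RPM in K27M hindbrain cultures, against 1312, 1403 and 1259.6 RPM in WT hindbrain cultures. All K27M values were about the same and all lay far above the WT values, with means of 4093 ± 167 RPM in K27M and 1325 ± 72.3 RPM in WT cultures (SD, n = 3 each) and a 3.09-fold ratio. Of the 60-kb windows 5.29% separated the groups in this direction and 47.8% in the other. Experiment by experiment, pairing cultures by the experiment number in the labels, the ratio was 2.97, 2.96 and 3.35.

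The share grows when the rest of the list shrinks, and autosomal islands covered 37.3 to 45.6 Mb in K27M hindbrain lists and 144.9 to 190.6 Mb in WT hindbrain lists. Reads as counted were also more numerous at the locus, 20776, 18173 and 20213 in K27M hindbrain cultures against 8133, 9721 and 11428 in WT hindbrain cultures. These counts are not scaled to total depth, which is not given, so alone they do not compare the amount of the mark. Relative to the mean density of its own list, however, the locus stood lower in K27M cells: reads per kb of its islands were 3.64, 3.35 and 3.98 times the list's mean in K27M hindbrain cultures, against 4.48, 4.89 and 5.00 times in WT hindbrain cultures. These groups did not overlap either, and 87.6% of 3592 windows with an island in all 6 lists separated in the same direction and 2.14% in the other. On the log2 scale the K27M minus WT difference in this ratio was -0.39 at the locus, against a median of -1.34 over these windows. Of the windows 86.9% lay below the locus, so the ratio was lowered less here than in most. Share and relative density thus rank the genotypes in opposite orders at this locus. The WT culture of experiment 3 was male and the other cultures female, and without it the log2 difference in share was 1.59, against 1.63 with all cultures.

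Measured against the 3334 merged regions that all 6 hindbrain lists share, the locus region (chr4:88910401-88959200) had 5167 ± 401 CPM in K27M hindbrain cultures and 1245 ± 61.9 in WT hindbrain cultures (SD, n = 3 each). The log2 fold from edgeR's quasi-likelihood fit was 2.05 (SE 0.11). Across all those regions the log2 fold had a median of -0.11, with 5% of regions below -1.86 and 5% above 1.75. The scaling factors of this fit, and of the fits below, centre most shared regions on no change, so the median is largely set by them. Scaling by plain totals of the shared regions gave 1.14 at the locus and a median of -1.02 over all regions.

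**Figure D2:**
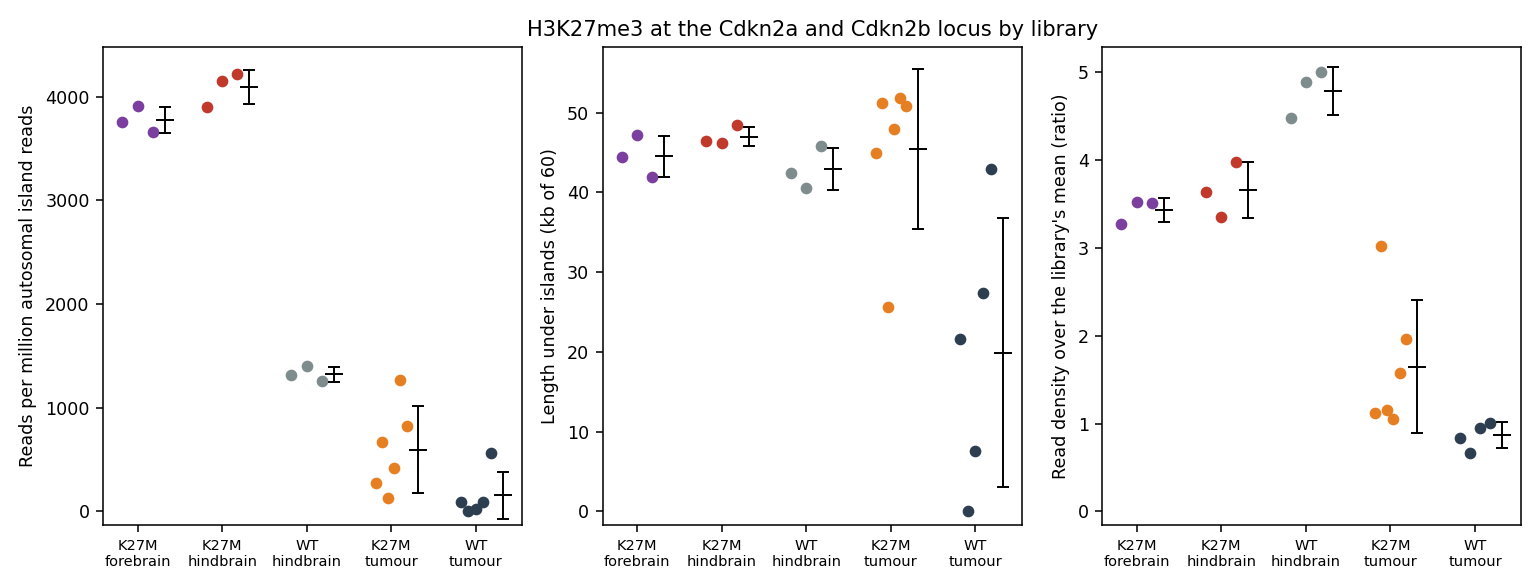
H3K27me3 at the Cdkn2a and Cdkn2b locus by library, as RPM (left), length under islands in kb (middle) and read density as a ratio to the mean of the library's own autosomal islands (right). Points are libraries, and the bar beside them is the mean with 1 SD. By mean, K27M hindbrain cultures are highest in RPM, at 3904 to 4223, overlapping K27M forebrain cultures at 3661 to 3908. WT hindbrain cultures are highest in density ratio, at 4.48 to 5.00. WT tumour 8, with no island, has no density ratio.

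K27M neurospheres from forebrain were close to those from hindbrain in the covered length and share of H3K27me3 at the locus. Islands covered 44.4, 47.2 and 42.0 kb in K27M forebrain cultures, against 46.4, 46.2 and 48.4 kb in K27M hindbrain cultures. The share was 3757, 3908 and 3661 RPM in K27M forebrain cultures, against 3904, 4152 and 4223 in K27M hindbrain cultures. Both measures overlapped between the brain regions, and forebrain culture 2 was the highest of its group in each. Paired by experiment number, the share was lower in forebrain in all 3 experiments, with ratios of 0.962, 0.941 and 0.867. The paired differences in covered length were -2.0, 1.0 and -6.4 kb. Over 6701 windows the brain regions separated towards forebrain in 12.9% and towards hindbrain in 16.2% by covered length, and in 15.9% and 22.7% by RPM. Means of the share were 3775 ± 125 in forebrain and 4093 ± 167 in hindbrain (SD, n = 3 each), a 0.922-fold ratio. In the fit over 3363 shared regions the log2 fold of forebrain over hindbrain was 0.02 (SE 0.11), the median of all regions being 0.03. The forebrain domain was less continuous: between sites 3 and 4 islands covered 58.8%, 71.3% and 100% of the span in forebrain cultures, ordered from low to high, and 100% in all 3 hindbrain K27M cultures.

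In tumours, most K27M tumours had a wide domain over the locus and most WT tumours had short islands, but the groups overlapped. Covered length was 45.0, 51.2, 25.6, 48.0, 51.8 and 50.8 kb in K27M tumours 1 to 6, with a median of 49.4 kb. In WT tumours 7 to 11 it was 21.6, 0, 7.60, 27.4 and 43.0 kb, with a median of 21.6 kb. K27M tumour 3 was the low one of its group and lay below WT tumours 10 and 11, and WT tumour 8 had no island anywhere in the window. Means were 45.4 ± 10.0 kb in K27M (SD, n = 6) and 19.9 ± 16.9 kb in WT tumours (SD, n = 5), a difference of 25.5 kb that was 20.5 kb without WT tumour 8 and 31.3 kb without WT tumour 11. Over 22612 windows of 60 kb the same difference had a median of -0.74 kb, with 5% of windows above 7.73 kb. The genotypes separated completely towards K27M in 0.663% of these windows and towards WT in 0.429%, and the locus is in neither set.

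Reads at the locus also took a larger share in most K27M tumours, again with overlap. The share was 273, 670.2, 129, 418, 1269.7 and 819 RPM in K27M tumours 1 to 6, with a median of 544. For WT tumours 7 to 11 it was 92.9, 0, 25.2, 86.3 and 560.4 RPM, also in that order, with a median of 86.3. K27M tumour 3 lay above 4 of the 5 WT tumours, and WT tumour 11 lay above 3 of the 6 K27M tumours, so the locus is not among the 2.2% of windows with all K27M tumours higher or the 1.48% with all lower. A share of 0 in WT tumour 8 means that no island was called, not that no read fell there. On the log2 scale, with 1 RPM added, the mean difference was 3.50 with all tumours and 2.16 without WT tumour 8. The pooled SD between tumours of a genotype was 2.43 on this scale, and 1.46 without WT tumour 8.

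**Figure D3:**
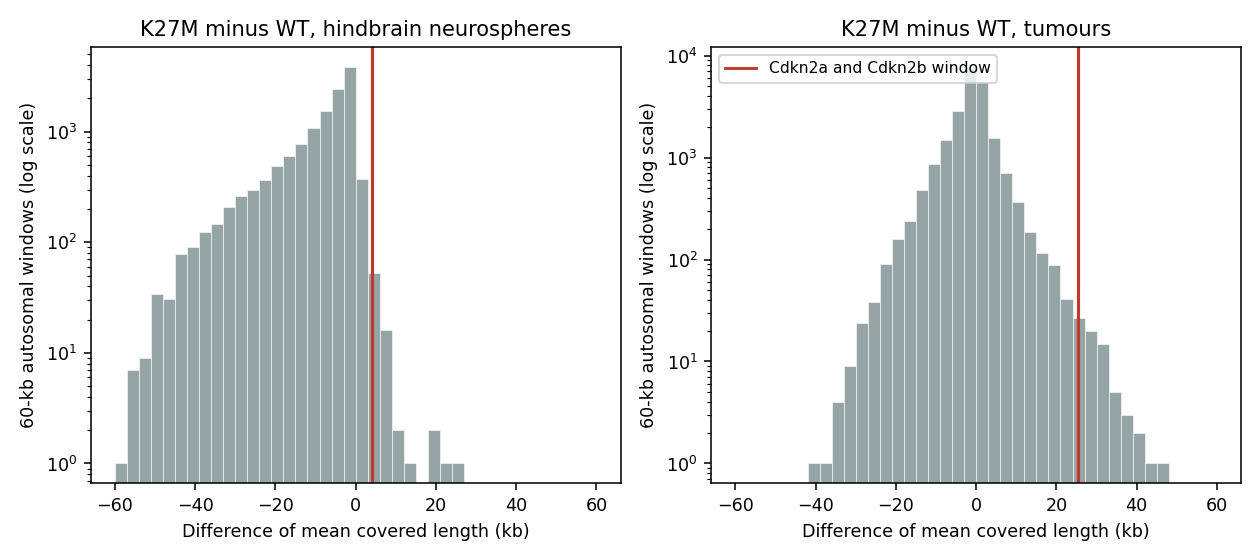
Difference of mean covered length between K27M and WT in autosomal windows of 60 kb, for hindbrain neurospheres (left) and tumours (right), with the number of windows on a log scale. The red line is the Cdkn2a and Cdkn2b window, at 4.07 kb in hindbrain cultures and 25.5 kb in tumours. Windows without an island in either group are left out.

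The list of WT tumour 8 held 4778347 reads in 163 Mb of autosomal islands. Lists of the other WT tumours held 1878972 to 14400936 reads in 77.6 to 302 Mb. Why WT tumour 8 had no island at the locus was not tested. The density of the locus islands over the list mean was 1.12, 3.02, 1.16, 1.05, 1.58 and 1.97 in K27M tumours 1 to 6. Among WT tumours it was 0.837, 0.669, 0.951 and 1.01 in numbers 7, 9, 10 and 11. All 6 K27M tumours lay above these 4 WT tumours, the nearest pair being 1.05 and 1.01, and 3.36% of 4048 windows separated in this direction and 10.2% in the other. In the fit over the 3344 regions shared by all tumours but WT tumour 8, the log2 fold was 1.64 (SE 0.72). Over all those regions the median was -0.04, with 5% of regions above 1.19. Scaling by plain totals gave 1.47 at the locus and a median of -0.24. Leaving out WT tumour 11 as well as WT tumour 8 gave a fitted log2 fold of 2.86. Sex is unevenly spread, with 4 male and 2 female K27M tumours and 1 male and 4 female WT tumours. With sex as a covariate the same fit gave 2.62 (SE 0.69), and among females alone, again without WT tumour 8, it gave 1.75 (SE 0.62). Among females the difference in covered length was 28.3 kb (2 K27M and 4 WT tumours), and there is only 1 WT male, WT tumour 9.

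Along the locus, the stretch from chr4:88918201 to 88925800, 7.60 kb long and on the side of lower coordinates from every H3K4me3 site, lay under an island in all libraries but WT tumour 8. It was the only island of WT tumour 9, whose list thus sets its ends. All 6 K27M tumours shared islands over 25.6 kb in 8 runs, which are the 8 islands of K27M tumour 3. The 5 WT tumours shared none, since tumour 8 has none. All 3 K27M hindbrain cultures shared 1 run of 45.8 kb. WT hindbrain cultures shared 2 runs, of 30.0 and 9.20 kb. The first ended at 88940800, inside site 3, and the second began at 88947001, before site 4. Islands covered 91.2%, 61.4% and 100% of site 3 in WT hindbrain cultures 1 to 3, and 100% in each K27M hindbrain culture. The 3 K27M forebrain cultures shared 40.6 kb in 3 runs. In the span between sites 3 and 4, islands covered 100% in each K27M hindbrain culture, against 30.1%, 58.8% and 84.1% in WT hindbrain cultures, ordered from low to high. At every other site or span of the window the hindbrain genotypes overlapped or were alike. How often such spans elsewhere separate the genotypes was not counted, so this is not read as particular to the span. On the side of higher coordinates the domain ended inside the window, and no island of any library lay in the next 20 kb.

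H3K4me3 was present at the same 5 sites in all 5 tumours profiled. Site 1 (chr4:88927232-88929060), site 3 (chr4:88937919-88942615) and site 5 (chr4:88955707-88957480) were wide, with 1.83, 4.70 and 1.77 kb after merging the tumours' peaks. Site 2 (chr4:88932554-88933179) and site 4 (chr4:88948891-88950147) spanned 0.626 and 1.26 kb. In each of the 5 lists the peak with the highest -log10 q was taken at sites 1, 3 and 5. The centres of these peaks lay 12.2 to 13.0 and 15.4 to 16.3 kb apart. RefSeq starts for p16INK4a, p19ARF and Cdkn2b lie 12.4 and 16.4 kb apart in GRCm38.p6. No mm9 annotation was used, so which site lies at which start is not settled by these files.

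H3K4me3 peaks covered less of the locus in both K27M tumours profiled. In all they covered 6.57 and 7.38 kb in K27M tumours 2 and 6, against 8.72, 7.91 and 9.89 kb in WT tumours 7, 9 and 10. Both K27M tumours lay below all 3 WT tumours, with means of 6.98 ± 0.573 kb in K27M (SD, n = 2) and 8.84 ± 0.996 kb in WT tumours (SD, n = 3), and 5.5% of 18246 windows separated in this direction and 13.9% in the other. Taken site by site, the lengths did not overlap between the genotypes at sites 2 and 3. How often single sites elsewhere separate 2 from 3 tumours was not counted, so this is not read as particular to these sites. At the wide site 3 peaks covered 2.62 and 2.83 kb in K27M tumours, against 3.51, 3.80 and 4.70 kb in WT tumours. At site 2 they covered 0.363 and 0.313 kb in K27M tumours and 0.626, 0.400 and 0.479 kb in WT tumours. The other sites overlapped between the genotypes. Site 1 had 1.18 and 1.41 kb in K27M tumours and 1.70, 1.79 and 1.30 kb in WT tumours. Site 4 had the longer mean in K27M tumours, with 0.858 and 1.22 kb against 1.12, 0.247 and 1.14 kb in WT tumours. At site 5 the lengths were 1.56 and 1.61 kb in K27M tumours and 1.52, 1.67 and 1.63 kb in WT tumours. By the authors' own fold enrichment, the strongest of the 5 sites was site 5 in both K27M lists and in all 3 WT lists, while by -log10 q it was site 3 in WT tumour 9 and site 5 in the other lists.

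H3K27ac covered less of the locus in most K27M tumours, with overlap between the genotypes. Peaks covered 4.44, 2.62, 2.65, 2.88, 1.84 and 3.55 kb in K27M tumours 1 to 6, with a median of 2.77 kb. In WT tumours 7 to 11 they covered 5.63, 11.7, 4.42, 6.86 and 3.03 kb, with a median of 5.63 kb. WT tumour 11 lay within the K27M range, WT tumour 9 just below the highest K27M tumour, and WT tumour 8 far above all others. Means were 3.00 ± 0.894 kb in K27M (SD, n = 6) and 6.32 ± 3.31 kb in WT tumours (SD, n = 5), a difference of -3.33 kb, or -1.99 kb without WT tumour 8. Over 21741 windows this difference had a median of -0.04 kb, with 5% below -1.33 kb, and the genotypes separated completely with K27M lower in 0.184% of windows and with K27M higher in 0.239%, the locus in neither. The number of peaks was alike, 5 to 8 in K27M and 5 to 9 in WT tumours, while the widest peak of a tumour ranged between 0.474 and 1.30 kb in K27M tumours and between 0.572 and 4.54 kb in WT tumours.

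**Figure D4:**
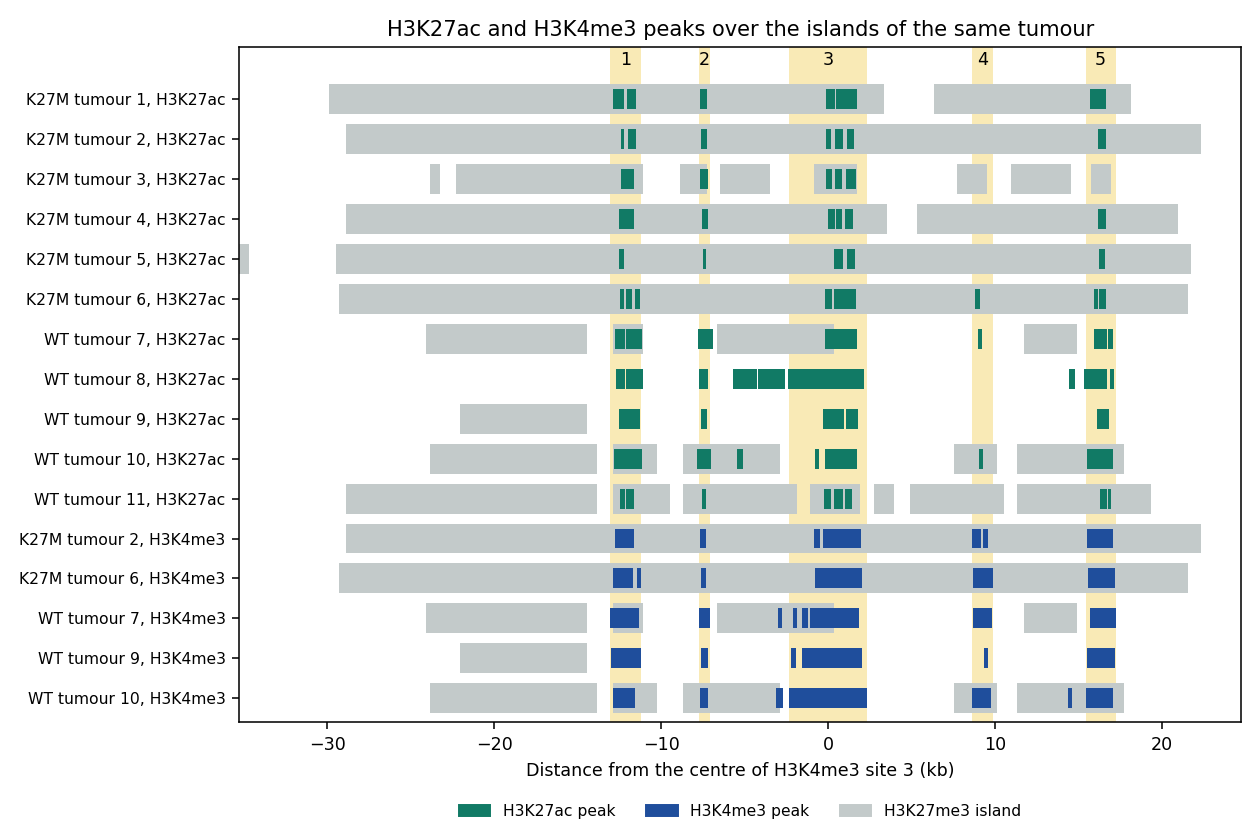
H3K27ac peaks (green, 11 tumours) and H3K4me3 peaks (blue, 5 tumours) over the H3K27me3 islands of the same tumour (grey), by distance in kb from the centre of site 3. Yellow bands and numbers mark the 5 shared H3K4me3 sites. In WT tumour 8, which has no island, H3K27ac runs across site 3 and on towards site 2, and over the whole window it covers 11.7 kb.

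Acetylation lay at the H3K4me3 sites. Site 3 had an H3K27ac peak in all 11 tumours, spanning 0.986 to 1.77 kb (median 1.29) in K27M tumours and 1.42 to 4.49 kb (median 2.03) in WT tumours. Site 1 also had one in every tumour, spanning between 0.265 and 1.26 kb in K27M tumours and between 0.769 and 1.64 kb in WT tumours. A peak at site 5 was found in 5 of 6 K27M and all 5 WT tumours, and at site 2 likewise in 5 of 6 and 5 of 5. Site 4 was mostly free of it, with a peak in 1 K27M and 2 WT tumours. Of the 73 H3K27ac peaks, 4 touched none of the 5 sites. WT tumour 8 had 3 of these, at chr4:88934563-88935990, chr4:88936056-88937707 and chr4:88954693-88955068, and WT tumour 10 had 1, at chr4:88934795-88935177. The widest peak of WT tumour 8, chr4:88937871-88942412, spanned 4.54 kb, nearly the whole of site 3, while the widest in any K27M tumour was 1.30 kb.

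In K27M tumours H3K27ac and H3K4me3 lay almost wholly inside H3K27me3 islands. In WT tumours H3K27ac lay from not at all to wholly inside them, and H3K4me3 from not at all to 50.9%. Of the H3K27ac length at the locus, 100% lay within islands of the same tumour in K27M tumours 1, 2, 4, 5 and 6 and 96.4% in K27M tumour 3. The share was 37.9%, 0%, 0%, 68.7% and 100% in WT tumours 7 to 11. For H3K4me3 it was 100% in K27M tumours 2 and 6, against 43.2%, 0% and 50.9% in WT tumours 7, 9 and 10. The extremes of the WT group matched across marks: tumour 8 had no island and the longest H3K27ac, and tumour 11 had the longest islands and the shortest H3K27ac. Between them the order did not hold, since tumour 9 had shorter islands than tumour 10 (7.60 and 27.4 kb) and also less H3K27ac (4.42 and 6.86 kb). A wider domain covers more of any peak by its width, and whether the marks sat on the same molecules or in different cells was not tested.

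**Figure D5:**
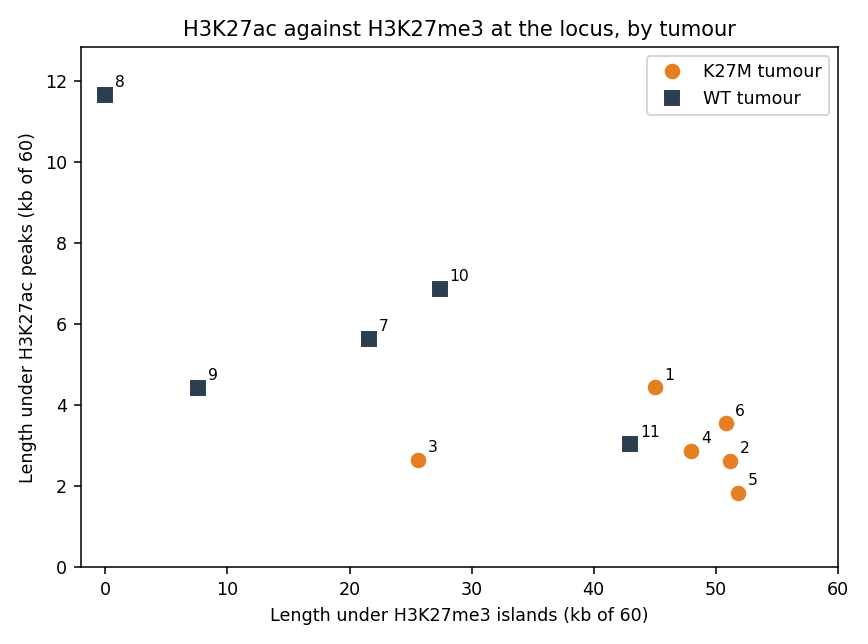
Length under H3K27ac peaks (y axis, kb) against length under H3K27me3 islands (x axis, kb) at the locus, 1 point per tumour with its number, K27M tumours as circles and WT tumours as squares. WT tumour 8 stands at 0 and 11.7 kb, WT tumour 11 lies among the K27M tumours, and K27M tumour 3 has the shortest islands of its group with an H3K27ac length of 2.65 kb.

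Set side by side, tumours had a smaller share of their reads at the locus than neurospheres of the same histone allele. The highest K27M tumour had 1269.7 RPM and the lowest K27M hindbrain culture 3904. Among WT samples the highest tumour had 560.4 RPM and the lowest hindbrain culture 1259.6. How many other windows separate tumours from cultures in this way was not counted, so this is not read as particular to the locus. Covered length overlapped, with 25.6 to 51.8 kb in K27M tumours and 46.2 to 48.4 kb in K27M hindbrain cultures. In WT samples it was 0 to 43.0 kb in tumours and 40.6 to 45.8 kb in hindbrain cultures. The share also depends on list length. Autosomal islands covered 67.1 to 231 Mb in K27M tumours and 37.3 to 45.6 Mb in K27M hindbrain cultures. In WT samples they covered 77.6 to 302 Mb in tumours and 144.9 to 190.6 Mb in hindbrain cultures. Tumours and cultures differ in cell makeup, in the added alleles, in Trp53 and in the form of the recombinase. Tumours were also frozen tissue, while the cultures came from embryonic cells. These differences cannot be told apart here.

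The regions whose H3K27me3 share was most like that of the locus over the 20 libraries were found among 1711 merged autosomal regions called in at least 19 of them. By Pearson's r of log2(RPM + 1), the closest was chr5:75538001-75573000 (r = 0.971), then chr11:85671401-85823600 (0.964) and chr4:114717001-114778800 (0.960), where the median over all regions was -0.07. The first of them had medians of 236 RPM in K27M tumours and 69.0 in WT tumours, and 1417 in K27M hindbrain and 396 in WT hindbrain cultures. It also lacked an island in at least 1 WT tumour, with a lowest value of 0. These libraries share list lengths and groups, so r is a description of the 20 libraries.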

How the data were processed

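Mouse brainstem tumours and embryonic neurospheres were profiled by ChIP-seq with Drosophila S2 chromatin added, per the labels' protocols. No spike-in factor was used here, so no value is an absolute amount. Build mm9 is named in the submitters' processing notes, as are SICER 1.1, MACS2, bedtools 2.25.0, BWA 0.7.12, SAMtools, Picard and R 2.14.0, none with a stated role. Each of the 20 deposited H3K27me3 lists gives islands (window 200 bp, gap 600 bp, per the file names) with a count of reads, taken as deposited by the authors. The 11 H3K27ac and 5 H3K4me3 lists deposited by the authors give for each peak a summit offset, a score, a -log10 p-value, a -log10 q-value (at least 2.00 in all lists) and the ratio called fold enrichment. Lists are per sample, without pooling. The other 23 samples, input DNA, were not analysed here.

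The locus and its lists were chosen with earlier results of these data known. Island ends were extended by 1 base. A share is the reads of overlapping islands per 1000000 reads in autosomal islands (RPM), with whole islands counted. Covered length is clipped to the window. Sites are merged H3K4me3 peaks with a peak in all 5 tumours. Windows of 60 kb over the autosomes gave the background, which counts windows where the groups do not overlap. Reads per merged region called in every list were fitted with edgeR 4.0.16 (quasi-likelihood, TMM factors, R 4.3.3), with DESeq2 1.42.0 as an alternative, after tests on simulated counts. No p-value is given for the locus, because its values chose it. WT tumour 8 has no island there, so the tumour fit planned over all 11 lists gives no value and the fit without it was added after seeing the data, as were the density ratios. Genes of the pathway could not be placed without an mm9 annotation. The named regions are the 3 with the highest r. Experiment numbers are shared between neurosphere groups in the labels and pair them; same-numbered deviations correlated at 0.10, 0.06 and 0.13 for genotype and at 0.19, 0.16 and 0.16 for brain region. Python 3.11.15 with SciPy 1.17.1, pandas 2.3.3, matplotlib 3.10.9 and numpy 2.4.6 did the rest.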

Additional observations from a re-analysis of the deposited data

Results flagged for a closer look

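Of 22 groups of 4 to 6 tumours examined across the measures of the locus, 5 had a tumour at an extreme whose gap to the next exceeded Dixon's 95% limit. In unselected groups about 1 in 20 does so; here the values chose the locus, some measures are counts and several share their islands, so the limit only lists tumours that stand apart and is no test. K27M tumour 3 had the shortest H3K27me3 cover of the K27M tumours, 25.6 kb, and the most islands in the window, 8. It was also the only K27M tumour whose H3K27ac was not wholly inside islands, at 96.4%; the others all being at 100%, any lower value would have passed the limit. WT tumour 11 had the highest share of the WT tumours, 560.4 RPM, and its list had the fewest autosomal island reads of all. WT tumour 10 had the most reads per kb of island among the WT tumours with an island, 45.4.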

How the results depend on the processing

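Of 149 alternative settings over 13 results, 133 kept the direction and moved the value by less than the spread between libraries, 9 moved it further and 7 turned its sign. All tumour settings fell in the first class, but the spread between tumours is wide. The log2 difference in share, 3.50 with a pooled SD of 2.43, counted there although it was 2.16 without WT tumour 8. The hindbrain log2 difference in share was 1.63, and 1.45 with all chromosomes in the denominator or 1.34 with the 6020 strongest autosomal islands of each list. The fitted hindbrain log2 fold of 2.05 was 1.14 without composition factors, 2.25 without a filter, and 1.88 to 2.18 when each replicate was left out. The lower density ratio of K27M hindbrain cultures, -0.39 on the log2 scale, was -0.16 over the 6020 strongest islands. With a window widened by 20 kb the hindbrain difference in covered length was -0.667 kb in place of 4.07 kb. Forebrain against hindbrain, the share difference of -0.12 was -0.018 with all chromosomes and below 0 in every setting run, as was the difference in covered length, while the fitted log2 fold of 0.02 changed sign and was -0.053 without composition factors, -0.088 on autosomal regions alone, -3.94e-04 with DESeq2, and -0.034 to 0.084 with a replicate left out. With the replicate block, pairing by experiment number, the share differences were 1.63 and -0.12 and the fitted folds 2.05 and 0.03, which changed no direction. No tumour result changed direction in any setting, but without WT tumour 11 the tumour fit gave 2.86 in place of 1.64 and with sex as a covariate 2.62. Islands below the authors' threshold give no reads, and depth limits what a missing island means. The causes of these changes were not tested.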
